A study of Mus musculus with 18 samples.

Results

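The cytosolic ribosomal protein genes were followed in epithelial cells sorted by flow cytometry from the mouse ileum, the last stretch of the small intestine. Members were taken as protein-coding genes whose symbol is Rps or Rpl with a number and at most 1 of the letters a, x, y or l, or is Rpsa, Rplp0, Rplp1 or Rplp2. The rule found 80 genes among the 47729 identifiers of the count tables, 31 for the small and 49 for the large ribosomal subunit, and it used no measured value. Polyadenylated RNA was sequenced in bulk in 18 libraries, 6 each from females lactating for 7 days, virgin females and virgin males, the virgin groups being matched in age to the lactating one. The labels name no strain, genotype, age in weeks or sorting gate, and all mice ate RM3 chow while breeding and RM1 chow in maintenance and during the experiment. They also do not state that each library came from a separate animal, so that p-values measure the spread between these libraries.

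Ribosomal proteins are the protein part of the particle that translates mRNA. They are made in the cytosol, carried into the nucleolus, and built around ribosomal RNA in nearly equal numbers, so their genes are usually expressed together and at high levels. Many of their mRNAs begin with a 5′ terminal oligopyrimidine tract (TOP), a C at the first base followed by a run of C and T, through which mTOR signalling and the protein Larp1 control their translation. In the intestinal crypt, dividing progenitors need many new ribosomes, whereas the enterocytes that leave the crypt and climb the villus no longer divide.

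The tract can be read in the genome. RefSeq start records on build GRCm38.p6 were matched for 60 members, which have 72 annotated starts. A C at the start followed by an unbroken pyrimidine run, at least 5 bases in all, stood at 13 of these 72 starts (18.1%) and at 823 of 32851 starts of all genes (2.51%). The 8 windows here, 10 bases before the start and 20 from it on, are of genes named in the results below. All but Rps27l carry the tract, so they do not represent the member starts as a whole. Rpl4, Rplp0 and Rpl41, also named below, have starts without it. Capitals mark the pyrimidine run that opens at the start, and Rps27l, which has none by this definition, is given for contrast with Rps27.
Rps6 (chr4:86857348-86857377, minus strand): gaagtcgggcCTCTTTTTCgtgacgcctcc
Rplp2 (chr7:141447641-141447670, plus strand): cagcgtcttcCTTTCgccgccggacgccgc
Rps21 (chr2:180257369-180257398, plus strand): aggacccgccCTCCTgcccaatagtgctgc
Rps15a (chr7:118116128-118116157, minus strand): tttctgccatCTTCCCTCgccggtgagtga
Rpl28 (chr7:4792955-4792984, plus strand): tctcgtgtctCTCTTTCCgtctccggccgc
Rpl38 (chr11:114668570-114668599, plus strand): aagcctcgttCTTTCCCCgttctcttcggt
Rps27 (chr3:90213629-90213658, minus strand): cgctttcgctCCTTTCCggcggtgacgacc
Rps27l (chr9:66946076-66946105, plus strand): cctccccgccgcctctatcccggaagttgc

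In the same records, the word CTTTCC on the sense strand, which can be part of such a tract, lay within 50 bases of the start at 30.6% of member starts and 4.69% of all starts. The word CCGGAAG, the core bound by ETS-family factors, was found on either strand at 18.1% of member starts and 5.21% of all starts. GGGCGG, the GC box, was at 33.3% against 21.7%, and TATAAA, the TATA box, at 5.56% against 3.4%. A match is a run of letters and does not show that a factor binds. A record that begins a few bases from the true start also misses a tract, so the count of 13 depends on how exactly RefSeq places each start.

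Of the 80 members, 77 had enough reads to be tested. The others were copies known from other tissues: Rpl10l, known from the testis, had 0 counts in all 18 libraries, while Rpl39l, also known from the testis, and Rpl3l, known from heart and skeletal muscle, had 14 and 12 counts over all libraries together and at most 4 and 3 in any single one. Their widely used partners were abundant. Rpl10, which joins the large subunit late in its assembly, had a mean of 410 CPM (counts scaled to library size and composition), Rpl3, which reaches into the catalytic centre, 481 CPM, and Rpl39, which lines the exit tunnel, 135 CPM. Rpl10 was also the steadiest member in relative terms, its highest library being 1.60 times its lowest. Rps27l was the only copy of this kind that was expressed, with a mean of 86.9 CPM beside 272 CPM for Rps27.

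Levels of different genes were compared per length, as CPM per kilobase of the mature transcript. The median member stood at 356 CPM per kilobase. The highest were Rplp1, a stalk protein that recruits elongation factors, at 952, and Rpl41, which encodes one of the shortest known proteins, at 919. On the scale not divided by length, Rplp0, the base of the same stalk, was the most abundant at 879 CPM. At the low end came Rps15a at 34.5 CPM per kilobase, a value that rests on an annotated transcript of 5179 bases, long for a member (median 878). Rpl22, an RNA-binding protein of the large subunit, followed at 75.3, also on a long annotated transcript (2051 bases).

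**Figure D1:**
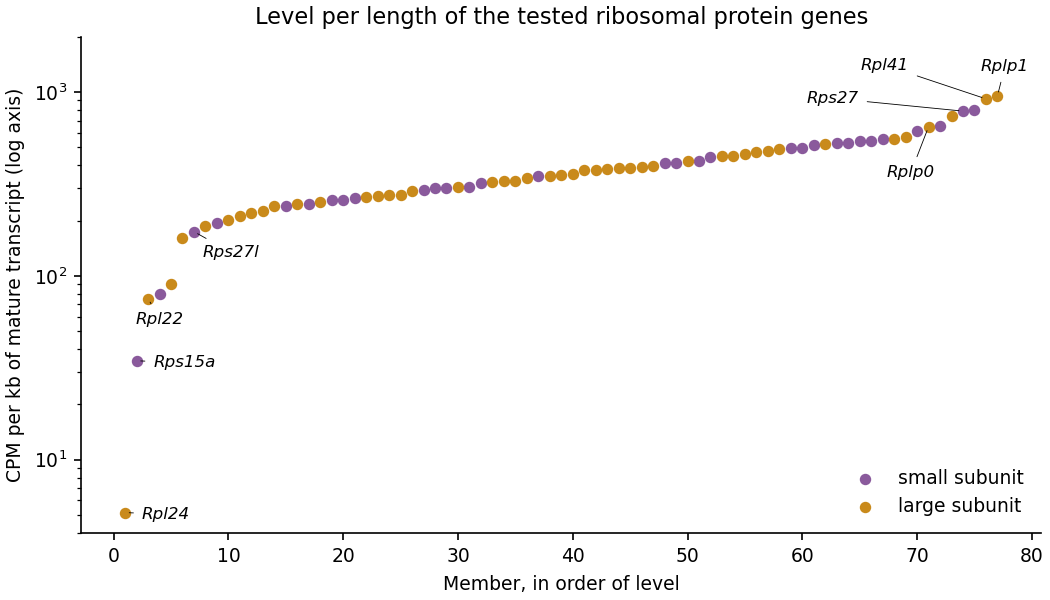
Mean level of each of the 77 tested members over 18 libraries, in CPM per kilobase of mature transcript on a log axis, ordered from lowest to highest and coloured by subunit. Rpl24 stands alone at 5.16, and from Rps15a at 34.5 to Rplp1 at 952 members of both subunits are found along the whole range.

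Rpl24 stood apart from every other member, at 5.16 CPM per kilobase and 73 to 251 counts in a library. Of its 677-base transcript, 484 bases (71.5%) are also annotated, on the same strand, to the predicted gene Gm28037, which was listed at 0 counts in every library. Fau, a ubiquitin-like fusion to a small-subunit protein that falls outside the symbol rule and has no such overlap, had group means of 423 to 465 CPM. Overlap alone did not go with a low value, since Rpl13a shares 59.3% of its transcript and lay within the range of the others. The part of the overlap in the counts of Rpl24 was not tested. In all, 17 members share some of their transcript with another gene's exons, 9 of them over 25%, and 59 have named pseudogenes, so counts of single members are uncertain where reads match more than 1 place.

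Together the members took 2.37% ± 0.658 of the counts in the lactating group (SD, n = 6), 2.31% ± 0.646 in virgin females and 3.14% ± 0.338 in the males. The libraries ran from 1.29 to 3.17% in the lactating group (median 2.39%), 1.58 to 3.10% in virgin females (median 2.18%) and 2.71 to 3.63% in virgin males (median 3.14%). Virgin males therefore lay in the upper part of the range, but each female group had libraries inside the male range. In bulk RNA, fewer cells of a type that is rich in these mRNAs and less of the mRNA in every cell cannot be told apart.

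**Figure D2:**
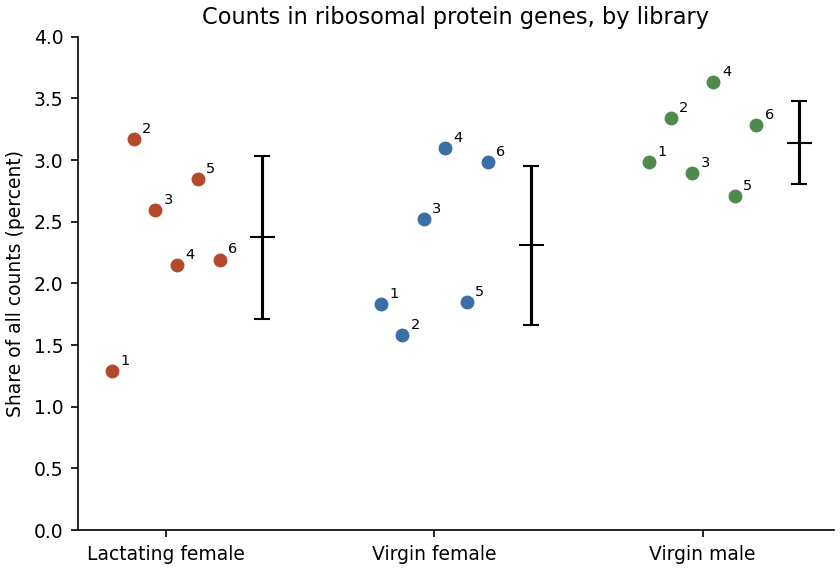
Share of all counts that fell on the 80 members, in percent, for each of the 18 libraries, with the mean and SD of each group of 6. The lactating and virgin female libraries spread from 1.29 to 3.17%, and the virgin males, between 2.71 and 3.63%, overlap the upper end of both.

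Library totals were 34577104 to 49039300 counts. Virgin female 2 and virgin male 6 stand apart through Gm42418, a gene that overlaps ribosomal RNA repeats, which took 2.89% and 3.35% of their counts against 0.137 to 0.408% elsewhere. Leaving Gm42418 and the mitochondrially encoded genes out of the totals gave shares of 2.56%, 2.49% and 3.37% in the same group order, so the order of the groups was the same. Summed epithelial markers reached 10995 to 18195 CPM in every library. The 15 immune markers summed to 7.50 to 46.1 CPM, with at least 13 of them under 1 CPM in each group. The 14 stromal, endothelial and muscle markers summed to 5.49 to 14.5 CPM, with 13 of them under 1 CPM in each group and the endothelial Cdh5 at or under 3 counts.

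The first comparison, of the female groups, concerns the maternal ileum during lactation. No ribosomal protein gene passed the test: 0 of 77 had an adjusted p under 0.05 by edgeR's quasi-likelihood test with Benjamini-Hochberg adjustment over 15572 genes, against 9 of all genes (0.0578%). DESeq2 also called 0 members. No member had an unadjusted p under 0.05, which 6.44% of all genes had, and no member's 6 lactating libraries lay wholly above or below the 6 virgin ones, as 0.289% of all genes did. The fitted log2 fold changes of the members ran from −0.07 to 0.40 with a median of 0.08, beside 0.00 for all genes. Of the 77, 64 were above 0, and small-subunit (median 0.09) and large-subunit members (median 0.07) had nearly the same value. Standard errors of single members ran from 0.12 to 0.26, wider than most of these differences.

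The smallest p belonged to Rps21, a small-subunit protein whose start window is printed above. Its CPM was 69.9 at the lowest, 126 at the median and 182 at the highest in the lactating group, 64.3, 96.5 and 114 in virgin females, and 91.2, 129 and 165 in virgin males. The 3 groups overlap, with most of the lactating and male libraries above the virgin female median. The log2 fold change of Rps21, lactating over virgin female, was 0.40 ± 0.19 (SE, edgeR adjusted p = 0.787). Rps27a, made as a fusion with ubiquitin, came next in p among the members beyond Rps21, at 178 ± 39.6 CPM in virgin females and 211 ± 56.5 in the lactating group, a difference of 0.25 on the log2 scale. Rps15a differed by 0.23 and Rpl39 by 0.19, both within their groups' overlap.

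Members that leaned the other way did so by very little. Rplp0 was at 831 ± 149 CPM in virgin females and 802 ± 196 in lactating females (−0.05 log2). Rpl4, whose protein reaches into the exit tunnel, was at −0.06, Rpl17 at −0.07, Rpl10a at −0.03 and Rpl29 at −0.05, none beyond 1 SE. Rps6, the protein phosphorylated by S6 kinase, had 302, 425 and 528 CPM as its lowest, median and highest in virgin females and 269, 427 and 565 CPM in lactating females. The medians of Rps6 were nearly equal, and the lactating range enclosed the virgin one.

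This direction rested on single libraries. Without lactating female 5 the median over the members was −0.04, and without lactating female 1 it was 0.18. Without virgin female 2 it was 0.00. The number of members above 0 went from 28 to 77 over the alternatives run.

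Virgin males against virgin females separate sex within virgin animals. Again 0 of 77 members were called by edgeR or by DESeq2, against 13 of all genes by edgeR (0.0835%), and the lowest adjusted p of a member was 0.565. Yet 76 of the 77 had a positive log2 fold change, from −0.02 to 0.49 with a median of 0.30, where all genes had a median of −0.01. Rps27l was the exception, at −0.02. Small-subunit members had a median of 0.32 and large-subunit members one of 0.29. An unadjusted p under 0.05 was reached by 17 members (22.1%) beside 8.32% of all genes, 9 of the small and 8 of the large subunit. Since the members varied together from library to library, these 17 are not separate observations. The groups did not overlap for 0 members, against 0.43% of all genes.

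Rpl30, a large-subunit protein that binds RNA in a kink turn, had the smallest p. Its lowest, median and highest CPM were 122, 166 and 206 in virgin females and 192, 207 and 247 in the males. The male median of Rpl30 lay just above the highest female library, yet the ranges met. Its log2 fold change, male over female, was 0.37 ± 0.14 (SE, edgeR adjusted p = 0.565). Rps21 differed most, by 0.49 ± 0.19, and Rps15a by 0.45 ± 0.18. Rpl9, of the large subunit, had 292 ± 39.8 CPM in virgin females and 373 ± 52.1 in virgin males, a difference of 0.35.

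The members with known roles outside translation showed the same lean without passing the test. Rpl5 and Rpl11, which with the 5S ribosomal RNA can bind Mdm2 and so relieve p53, were at 504 ± 110 and 293 ± 67.3 CPM in virgin females and at 654 ± 74.9 and 360 ± 36 CPM in virgin males. Rpsa, also known as a laminin receptor, went from 452 ± 92.7 to 575 ± 66.4 CPM. Rps4x, which lies on the X chromosome, was at 486 ± 93.8 CPM in virgin females and 607 ± 57.7 in virgin males, a log2 difference of 0.32 that is close to the median of the members. Of the stalk genes, Rplp0 differed by 0.27, Rplp1 by 0.27 and Rplp2 by 0.28. The median over the members was 0.22 without virgin female 2, which had among the lowest member levels, and 0.35 without virgin female 4. All medians with 1 library left out were above 0.

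Lactating females against virgin males mix sex with lactation, and share their libraries with the other comparisons. Here, too, 0 of 77 members were called by edgeR or DESeq2, against 119 of all genes by edgeR (0.764%). Fitted log2 fold changes, lactating over male, ran from −0.37 to 0.17 with a median of −0.22, beside −0.01 for all genes, and 72 of 77 were below 0. The members above 0 were Rps27l (0.17), Rpl24 (0.07), Rpl41 (0.05), and Rpl28 and Rpl38 (both 0.00). Only 2 members (2.6%) had an unadjusted p under 0.05, fewer in proportion than the 15.9% of all genes. Groups did not overlap for 1.34% of all genes and for 0 members.

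Those with the smallest p were Rpl4 and Rpl17. Rpl4 had 513, 738 and 909 CPM as lowest, median and highest in lactating females and 833, 920 and 1038 CPM in virgin males. Most lactating libraries lay under the male range of Rpl4, but the highest lay inside it. Its log2 fold change was −0.34 ± 0.15 (SE, edgeR adjusted p = 0.283). Rpl17, of the exit tunnel, was at 333 ± 67.0 CPM in lactating females and 417 ± 44.1 in virgin males (−0.33, edgeR adjusted p = 0.297). Rps10 and Rpl5 had differences of −0.30 and −0.33. The median over the members was −0.34 without lactating female 5 and −0.12 without lactating female 1.

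**Figure D3:**
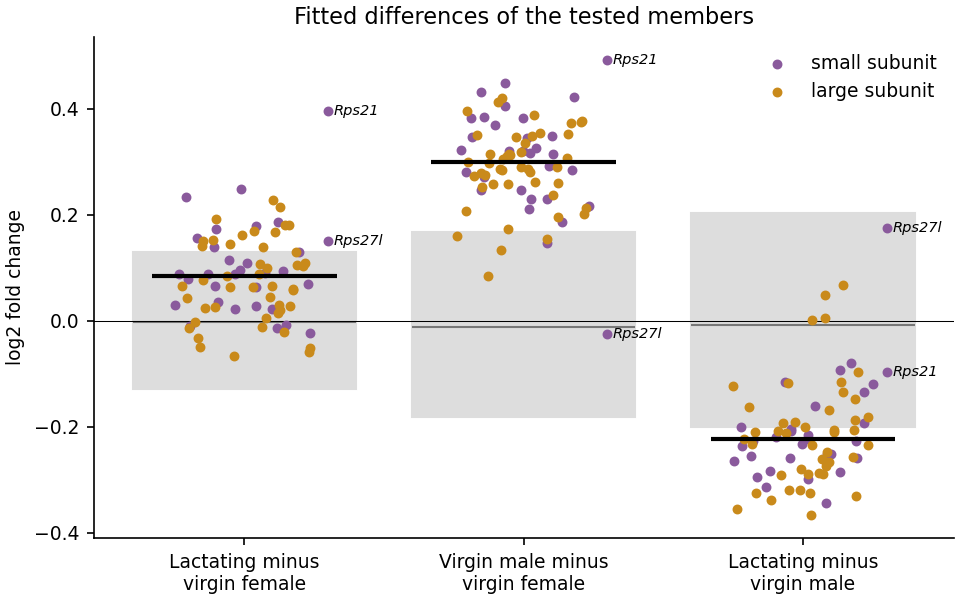
Fitted log2 fold change of each of the 77 tested members in the 3 comparisons, coloured by subunit, with Rps21 and Rps27l named. Black bars are the member medians (0.08, 0.30 and −0.22), and the grey band and line are the middle 50% and the median of all 15572 genes. No member passed the test in any comparison.

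The members moved as 1 block across libraries. Over the 18 libraries, the log2 CPM of a member correlated with the median of the other members at a median r of 0.961, and 67 of the 77 had r above 0.9. This describes libraries that share depth, composition and cell mixture, and is no test. After the member median of each library was taken off, the typical member varied by an SD of only 0.09 on the log2 scale. Rpl22 was among the closest followers of the block, with an SD of 0.04. The block itself, as the median member log2 CPM, was at 8.24 ± 0.368 in the lactating group, 8.17 ± 0.291 in virgin females and 8.51 ± 0.139 in virgin males (SD, n = 6).

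Most of that spread came from a few libraries. Lactating female 1 had the lowest block level, 7.64, and was the lowest of all 18 libraries for 57 members. Virgin female 2 was next at 7.75 and was the lowest for 20. At the other end, lactating female 5 had the highest level, 8.72, and was the highest library for 43 members, ahead of virgin male 4 for 19 and virgin male 2 for 14. The lowest and the highest library thus both belonged to the lactating group. The median coefficient of variation of a member was 25.8% in the lactating group, 20.6% in virgin females and 11.1% in virgin males. Over the 2037 genes in the same range of CPM the medians were 19.2%, 19.6% and 10.8%, so in virgin animals the members varied about as much as other genes of their level.

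**Figure D4:**
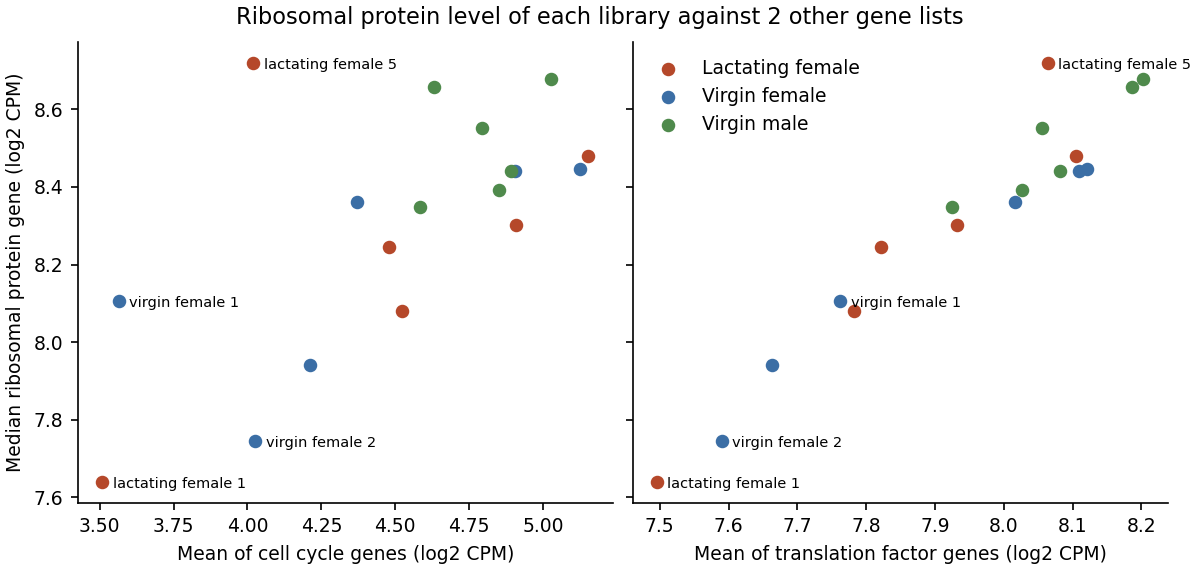
Median member level (log2 CPM) of each of the 18 libraries on the y axis, against the mean log2 CPM of 35 cell cycle genes (left, the cell cycle score) and of 20 translation genes (right), with points coloured by group. On the left, lactating female 1 is lowest and has a low score (3.51), but lactating female 5 is highest and also has a low score (4.02), while on the right all points lie near 1 line (r = 0.96).

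Genes of dividing cells varied in the same libraries. The cell cycle score was 4.43 ± 0.597 in the lactating group, 4.37 ± 0.574 in virgin females and 4.80 ± 0.167 in the males, the same order as the member level. Over 18 libraries the member level followed it with Pearson r = 0.645 and Spearman rho = 0.556. Without the 2 libraries farthest from the median score r was 0.468, and within the groups it was 0.496, 0.705 and 0.317. Markers of the villus tip had r = −0.52 with the member level, which was −0.308 without the 2 libraries farthest from the median of that score and −0.357, −0.763 and −0.374 within the groups. Stem cell markers had r = 0.506, which was 0.267 without the 2 farthest and 0.282, 0.556 and 0.52 within the groups. Both relations thus rest in large part on those libraries. With the cell cycle score as a covariate, the member medians were 0.07 for lactating over virgin female, 0.18 for male over female and −0.13 for lactating over male, with no member called. Lactating female 5 does not follow this relation, having the highest member level beside a low cell cycle score and a high villus tip score (9.96). What part the mix of dividing and mature cells has in the member levels was not tested beyond these values.

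A few members departed from the block. Rps27l, which p53 can induce, had the lowest correlation with the other members (r = 0.363). Relative to the member median it ranged from −2.21 to −1.37 log2 in the lactating group, from −2.33 to −1.20 in virgin females and from −2.28 to −1.99 in virgin males. The ranges overlap, with the males at the low end. Its CPM was 93.5 ± 23.1, 84.3 ± 21.4 and 82.8 ± 6.17 in the same order, so Rps27l itself was nearly level where the other members leaned upward in males. Across the 18 libraries this relative level of Rps27l went down as the cell cycle score went up (r = −0.86, rho = −0.8), and within the groups r was −0.837, −0.93 and −0.452.

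Rpl28 and Rpl41 had the same sign. Rpl28, a large-subunit protein, correlated with the other members at 0.693, and its level relative to them had r = −0.816 with the cell cycle score overall and −0.933, −0.804 and −0.282 within the groups. Rpl41 correlated with the others at 0.716, and its relative level had r = −0.761 overall and −0.806, −0.699 and −0.376 within the groups. For both genes the relation was weak in the males, whose cell cycle scores span the narrowest range. Rpl24, also among the 4 members that departed most, correlated with the others at 0.737. Its relative level had r = −0.506 overall and −0.588, −0.261 and −0.556 within the groups. Rpl3 had the opposite sign, with r = 0.889 overall and 0.884, 0.928 and 0.634 within the groups. It stayed closer to the block than these, correlating with the other members at 0.926. It ranged from 0.19 to 0.71 log2 above the member median in lactating females and from 0.61 to 0.69 in virgin males. Rpl3 had 299, 414 and 549 CPM as lowest, median and highest in virgin females and 500, 560 and 651 CPM in the males. These are correlations of relative levels that share a denominator, and were not tested.

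**Figure D5:**
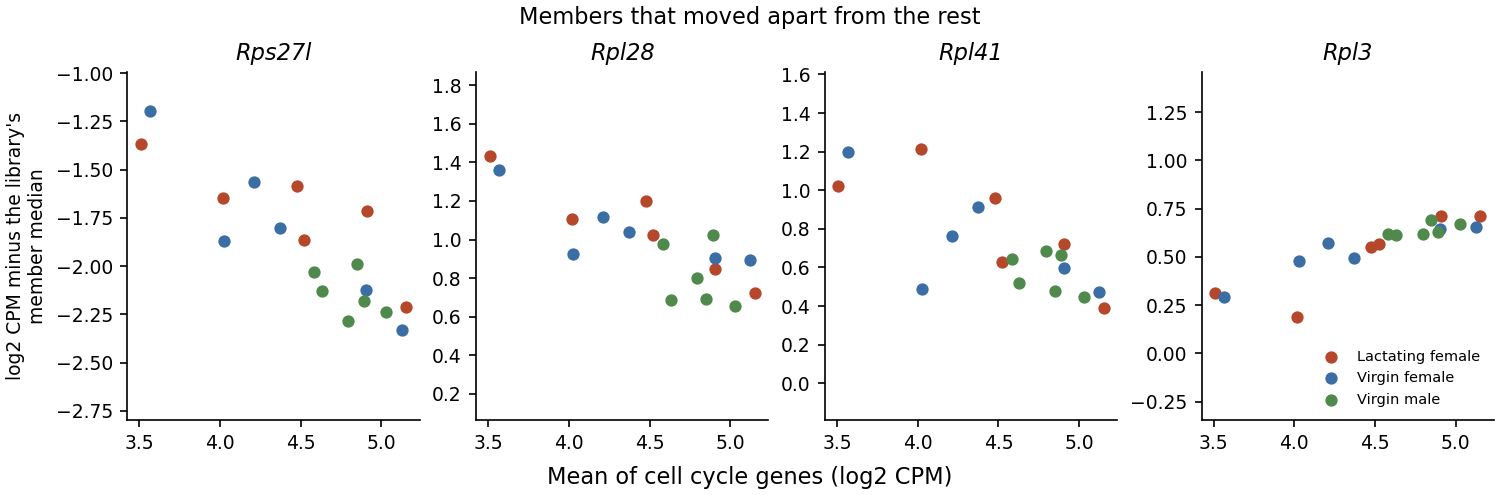
Level of Rps27l, Rpl28, Rpl41 and Rpl3 relative to the median member of the same library (log2) against the cell cycle score, 1 point per library coloured by group. Rps27l (r = −0.86), Rpl28 and Rpl41 slope down, and Rpl3 (r = 0.889) slopes up. Rpl24, which departed more from the block than Rpl3, is not drawn, and Rpl3 was chosen after its values were seen.

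Copies that can replace one another in the ribosome were compared as ratios within a library. The log2 ratio of Rps27l to Rps27 was −1.53 ± 0.206 in the lactating group, −1.62 ± 0.427 in virgin females and −1.79 ± 0.174 in virgin males. Lactating exceeded male by 0.26 (two-sided exact permutation test p = 0.0476, adjusted over 6 ratio tests 0.0952), and the other 2 comparisons had exact p-values of 0.665 and 0.396. The ratio of Rpl22l1, a copy whose symbol falls outside the rule, to Rpl22 was −1.61 ± 0.182 in the lactating group, −1.96 ± 0.277 in virgin females and −1.97 ± 0.357 in virgin males. Here the lactating libraries were higher by 0.347 than the virgin females (exact permutation p = 0.0368, adjusted 0.0952) and by 0.361 than the males (exact permutation p = 0.0303, adjusted 0.0952). Virgin males and females differed by −0.0141 (exact permutation p = 0.948). None of the 6 ratio tests passed after adjustment. Rpl22l1 had 48.2 ± 8.90 CPM in lactating females and 35.9 ± 4.57 in virgin females, and Rpl22 had 150 ± 39.2 and 141 ± 27.9.

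Other ribosomal protein genes, which the symbol rule leaves out, were not called either. All 7 listed, among them Fau, Rps3a1 and Rpl22l1, were above 0 in lactating over virgin females (median 0.15), 6 of 7 in male over female (median 0.32) and 3 of 7 in lactating over male (median −0.09). Rps3a1, the expressed mouse gene for Rps3a, was at 501 ± 115 CPM in the lactating group, 473 ± 113 in virgin females and 601 ± 60.2 in virgin males, much like the members.

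The wider translation machinery was read from 20 translation genes, mostly factors known for TOP-type mRNAs, 52 genes of ribosome assembly and 77 tested genes of the mitochondrial ribosome, and none was called in any comparison. For the TOP translation list, 9 of 20 were above 0 in lactating over virgin females (median −0.01), 19 of 20 in male over female (median 0.16) and 1 of 20 in lactating over male (median −0.22). Eef2, which moves the ribosome along mRNA, was at 1686 ± 206 CPM in the lactating group, 1901 ± 193 in virgin females and 2130 ± 135 in the males. Its log2 difference of −0.34, lactating over male, had an edgeR adjusted p of 0.199. Rack1, a scaffold on the small subunit, was at 455 ± 98.1, 459 ± 87.0 and 587 ± 62.1 CPM in the same order. The level of this list followed that of the members with r = 0.96 (rho = 0.917) over 18 libraries, and with 0.958, 0.984 and 0.923 within the groups.

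Assembly genes had the larger spread between comparisons. Of the 52, 37 were above 0 in lactating over virgin females (median 0.04), 49 in male over female (median 0.34) and 5 in lactating over male (median −0.31). Fbl, the methyltransferase of box C/D particles, had 35.4 ± 11.9 CPM in virgin females and 51.8 ± 5.92 in virgin males (0.55 log2, edgeR adjusted p = 0.565). Eif6, which keeps the subunits apart, had 229 ± 73.2 CPM in the lactating group, 187 ± 37.6 in virgin females and 171 ± 31.3 in virgin males. It leaned against the list in both comparisons with males, which share the male libraries, and with it in lactating over virgin females. Genes of the mitochondrial ribosome had medians of 0.07, 0.12 and −0.02 in the order of the comparisons above, and 61, 58 and 28 of 77 above 0. The 13 mitochondrially encoded genes went the other way, with 0 of 13 above 0 in male over female (median −0.35) and 12 of 13 in lactating over male (median 0.33). Their score had r = −0.681 with the member level.

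Regulators showed no common direction. Of 14 genes of mTOR and Myc control, 4 were above 0 in lactating over virgin females, 5 in male over female and 5 in lactating over male, with none called. Of 14 p53 target and pathway genes, the counts were 8, 5 and 9. Cdkn1a, the cell cycle inhibitor that p53 induces, was at 257 ± 57.6 CPM in the lactating group, 240 ± 62.7 in virgin females and 199 ± 32.7 in virgin males (edgeR adjusted p = 0.311 for lactating against male). The 35 cell cycle genes had 27, 34 and 1 above 0, with medians of 0.09, 0.35 and −0.28. Stem cell markers had 2, 12 and 2 of 15 above 0, and villus tip markers 9, 3 and 10 of 11. In the comparisons with males, which share the male libraries, the members leaned with the cell cycle and stem cell lists and against the villus tip list. In lactating over virgin females, 64 of 77 members were above 0. There the members leaned with the cell cycle and villus tip lists and against the stem cell list. No gene of these 5 lists was called, and their part in the member levels was not tested.

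Markers of other epithelial cell types also leaned between the groups, and 1 of them was called. Of 12 enteroendocrine markers, 11 were above 0 in lactating over virgin females (median 0.53), 7 in male over female (median 0.04) and 12 in lactating over male (median 0.55). Gcg, which encodes glucagon-like peptides, was called there, at 66.6 ± 20 CPM in the lactating group and 35.7 ± 8.67 in the males (0.90 log2, edgeR adjusted p = 0.046). Of 8 Paneth cell markers, 1, 3 and 2 were above 0 in the same order, with medians of −0.41, −0.03 and −0.42 and none called. Goblet cell markers had 4, 4 and 5 of 8 above 0, and tuft cell markers 4, 6 and 1 of 7, with none called. The heat shock gene Hspa1a, from a list of 12 early response genes of which none was called, had log2 differences of −1.62 for lactating over virgin female and −1.83 for lactating over male (edgeR adjusted p = 0.569 and 0.164). The part of these genes in the member levels was not tested.

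Members with and without a TOP start by this definition had similar median differences. The 13 with the tract had median log2 fold changes of 0.10, 0.30 and −0.19 for lactating over virgin female, male over female and lactating over male, and the 44 other tested members with a RefSeq start had 0.08, 0.31 and −0.23. The split is not clean, since some of the 44 open on a pyrimidine run whose first base is not C. The run is 16 bases in Rpl27a, 7 in Rpl7a and 6 at the upstream start of Rps24. The tract controls translation, which mRNA counts do not measure, so these medians do not show whether it had an effect. Rps21, with the highest fold change in both comparisons with virgin females, has a tract of only 5 bases, and Rpl28, with 8 bases, was among the members that followed the block least.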

How the data were processed

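The authors deposited raw read counts per Ensembl gene, 1 table per library. The submitters' processing notes name HISAT2 2.0.4, featureCounts of Subread 2.0.0, FastQC 0.11.5, DESeq2 1.24.0 and build GRCm38. Per the labels' protocols, the kit selects poly(A) RNA and keeps strand. The annotation release, strand setting and treatment of reads matching several places are not given in the sources used here, so pseudogenes and overlapping genes may affect members' counts. Symbols and lengths came from GENCODE M21, which held 47310 of 47729 identifiers. 0 identifiers named no gene.

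Genes were filtered with filterByExpr and scaled with TMM in edgeR 4.0.16 (R 4.3.3, limma 3.58.1), which left 15572 genes. All 18 libraries entered 1 quasi-likelihood fit with no covariate. Calls are genes with a p under 0.05 after Benjamini-Hochberg adjustment over all tested genes. SE is the size of the log2 fold change over the root of F, and scores are means of log2 CPM with a prior count of 2. The fit was tested on simulated data. Totals of 34577104 to 49039300 counts set the precision, and 3 counts were taken as the floor. Reads carry no molecular identifiers, so this covers counting error only. Counts differed beyond sampling noise in all 153 library pairs (chi-square at least 32.8 per degree of freedom), so all 18 were counted.

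Ratios within libraries were compared by exact permutation over 924 assignments. Alternatives were DESeq2 1.42.0, other scalings and filters, a replicate block, 2 groups alone, a cell cycle covariate, and libraries left out.

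Members and lists were chosen with earlier results of these data known. The members named are copies with an added l and their partners, the 4 smallest p per comparison, the extremes of level, up to 5 of opposite sign, the 4 that depart most from the block, and 10 of textbook interest. Genes outside the rule are the 7 other ribosomal protein genes and the 2 smallest p per list and comparison. Rpl13a, Rpl38 and the relation of single members to the cell cycle score were chosen after their values were seen. Rpl27a, Rpl7a and Rps24 are named only for their start sequences.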

Additional observations from a re-analysis of the deposited data

Results flagged for a closer look

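Within the lactating group, lactating female 5 stood far above the other 5 libraries for 3 of the members described, out of 87 groups of 6 looked at. Chance alone sets apart about 1 in 20 such groups. Rpl41 was at 977 CPM there, with the next library at 589 and the lowest at 405. Rps27 was at 414 CPM, with the next at 272 and the lowest at 199. Rpl24 was at 7.35 CPM, with the next at 4.04 and the lowest at 2.22. This is the library with the highest median member level.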

How the results depend on the processing

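No member was called in any of the 20 alternatives run per comparison, where the lowest adjusted p of a member was 0.415 for lactating against virgin female, 0.271 for male against female and 0.114 for lactating against male. Counts over all genes were less stable. Against 9 genes called between lactating and virgin females, DESeq2 called 69, the fit with cell cycle score 60, the fit of 2 groups alone 1, and the fit that drops virgin female 2 and virgin male 6 also 1. Against 13 called between males and females, DESeq2 called 30 and no filter on low counts gave 20. Against 119 called between lactating females and males, DESeq2 called 410 and leaving out virgin female 2 and virgin male 6 gave 61. Leaving out 1 library at a time gave 2 to 16, 10 to 18 and 62 to 311 called genes. Member medians then ran from −0.04 to 0.18, 0.22 to 0.35 and −0.34 to −0.12, and without virgin female 2 and virgin male 6 they were 0.00, 0.22 and −0.22. With a replicate block, 1, 11 and 114 genes were called and the medians were 0.07, 0.30 and −0.24. Same-numbered libraries correlated from −0.219 to 0.477, with 7 of 18 pairs over 0.1 and 5 of 18 libraries closest to their own number. Pairs with different numbers ran from −0.673 to 0.722. The labels do not say what the numbers mean, and these values cannot settle whether same-numbered libraries share a day or batch. Why the called counts and medians changed between alternatives was not tested. With 6 libraries per group, even some differences beyond 2 SE of a member (median SE 0.167) were not called. Rpl30 in male over female (0.37 ± 0.14, SE) is 1 of these. Differences of that size or smaller in single members can therefore be missed here.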
